A study of Mus musculus with 12 samples.

Results

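RNA levels of 9 chemokine receptor genes (Cxcr3, Cxcr4, Cxcr5, Cxcr6, Ccr2, Ccr4, Ccr6, Ccr7 and Ccr8) were examined in splenic CD4+ T cells of Gr/fr mice. The genes were taken by symbol through their Entrez identifiers, and all 9 were among the 17523 genes listed. In these C57BL/6 mice the Csf2 allele encodes Cre recombinase and BFP besides GM-CSF, all under the endogenous Csf2 promoter. A loxP-flanked stop that precedes eYFP at Rosa26 is lost once Cre is made, and YFP therefore marks cells that express GM-CSF, have expressed it or descend from such cells. The animals were unimmunized, and all 4 groups carry the same alleles. The methods give an age of 2 to 3 months for Gr/fr mice used for CD4+ T cell sorting, without naming these libraries. Naïve cells (CD62L+CD44-) and effector memory (TEM) cells (CD62L-CD44hi) were separated by YFP into negative and positive fractions, YFP- and YFP+, with 3 libraries numbered 1 to 3 in each of the 4 groups. YFP records history and not present Csf2 expression. The methods give n = 3 beside the Gr/fr mice. They do not say whether each library came from a separate mouse or from pooled mice, or whether same-numbered libraries share a mouse. The p values therefore measure only the spread between these libraries.

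Chemokine receptors are G protein-coupled receptors at the cell surface that steer leukocytes along gradients of small secreted proteins, the chemokines. Naïve T cells use CCR7 to enter lymph nodes and the T cell zone of the spleen, and antigen-experienced cells acquire receptors that lead them into follicles, barrier tissues and inflamed sites. Each helper subset is known for its own receptors, such as CXCR3 on Th1 cells, CCR6 on Th17 cells, CXCR5 on follicular helper cells and CCR4 and CCR8 on Th2 and regulatory T cells. CXCR6 is the receptor for CXCL16 and is found on activated and tissue-resident T cells and on invariant NKT cells.

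Each library held from 40974124 to 57822269 reads in genes. Values are normalized counts, that is reads divided by the size factor of the library. Csf2 was at 3 reads or fewer in every YFP- TEM library and at 139, 55.9 and 152 normalized counts in YFP+ TEM libraries 1, 2 and 3, at least 44.8-fold higher in the mean than a floor of 3 reads in each YFP- library. The sort marker gene Cd44 followed the labels as well and lay between 2334 and 3372 normalized counts in the naïve libraries and between 21778 and 29383 in the TEM libraries.

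The start regions of 3 genes are shown because they stand for the patterns described below. Cxcr6 and Ccr2 were higher in YFP+ than in YFP- TEM cells, whereas Cxcr4 passed the test in none of the comparisons. Each sequence is from the GRCm38.p6 annotation of RefSeq, on the same assembly as mm10, runs from 250 bases before to 50 bases after an annotated start, and has in capitals the matches to 7 short motifs on either strand. The T-box motifs were AGGTGT and the shorter site TCACAC, Runx was read as TGTGGT, Ets as GGAAGT, Klf as CACCC, ROR as AGGTCA and Gata as AGATAA, and matches may overlap. The lines give Cxcr6 (chr9:123806227-123806526, plus strand), Ccr2 (chr9:124101933-124102232, plus strand) and Cxcr4 (chr1:128592250-128592549, minus strand). The Ccr2 window lies wholly within the annotated span of its gene, which begins at 124101918, so its start is an internal one. Those of Cxcr6 and Cxcr4 begin outside their genes.
Cxcr6: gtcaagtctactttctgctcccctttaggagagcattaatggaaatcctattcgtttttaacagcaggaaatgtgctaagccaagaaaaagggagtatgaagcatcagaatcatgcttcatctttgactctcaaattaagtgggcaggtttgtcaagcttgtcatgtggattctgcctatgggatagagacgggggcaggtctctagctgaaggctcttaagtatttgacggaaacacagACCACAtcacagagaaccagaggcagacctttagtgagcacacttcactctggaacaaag
Ccr2: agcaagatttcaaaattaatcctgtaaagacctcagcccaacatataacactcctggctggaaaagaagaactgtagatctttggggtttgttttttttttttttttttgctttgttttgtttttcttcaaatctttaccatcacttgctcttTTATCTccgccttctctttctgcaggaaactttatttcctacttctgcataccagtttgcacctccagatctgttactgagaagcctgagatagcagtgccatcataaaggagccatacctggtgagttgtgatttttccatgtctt
Cxcr4: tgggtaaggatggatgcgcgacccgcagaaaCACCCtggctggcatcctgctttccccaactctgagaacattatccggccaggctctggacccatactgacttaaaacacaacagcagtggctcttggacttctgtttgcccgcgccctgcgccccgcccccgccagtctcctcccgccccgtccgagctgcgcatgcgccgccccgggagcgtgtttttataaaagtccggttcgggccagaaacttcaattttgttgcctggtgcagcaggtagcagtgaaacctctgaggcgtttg
The Cxcr6 window held 1 match, the Runx letters at -10 on the opposite strand, which 16.7% of 32544 promoter windows hold. The Ccr2 window held the Gata letters at -97 on the opposite strand, found in 11.2% of the windows, and the Cxcr4 window held the Klf letters at -219, found in 57.7%. The first 2 windows were poor in CpG, with 3 in Cxcr6 and 1 in Ccr2, whereas Cxcr4 had 20, against a median of 7 over all windows, of which 31.0% had 3 or fewer. The receptor gene windows not shown had 4 in Cxcr3, 3 in Ccr4, 2 in Ccr8, and 2 and 10 in the windows of Ccr6. None of these genes passed the test between the TEM fractions. GC content was 44.3% in Cxcr6, 38.0% in Ccr2 and 59.3% in Cxcr4, with a median of 53.0%. Windows were found for 7 of the 9 genes, and the T-box, ROR and Ets letters were absent from the 3 shown. Among the windows not shown, Cxcr3 held the shorter T-box site and Ets letters, Ccr4 held Ets, and Ccr6 held Ets and ROR.

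The plot of all 9 genes by library shows 3 kinds of pattern: 7 receptor genes were low in naïve cells and high in TEM cells, Ccr7 had the opposite order, and Cxcr4 was abundant everywhere. In bulk libraries fewer cells of a type and less RNA per cell cannot be told apart.

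**Figure D1:**
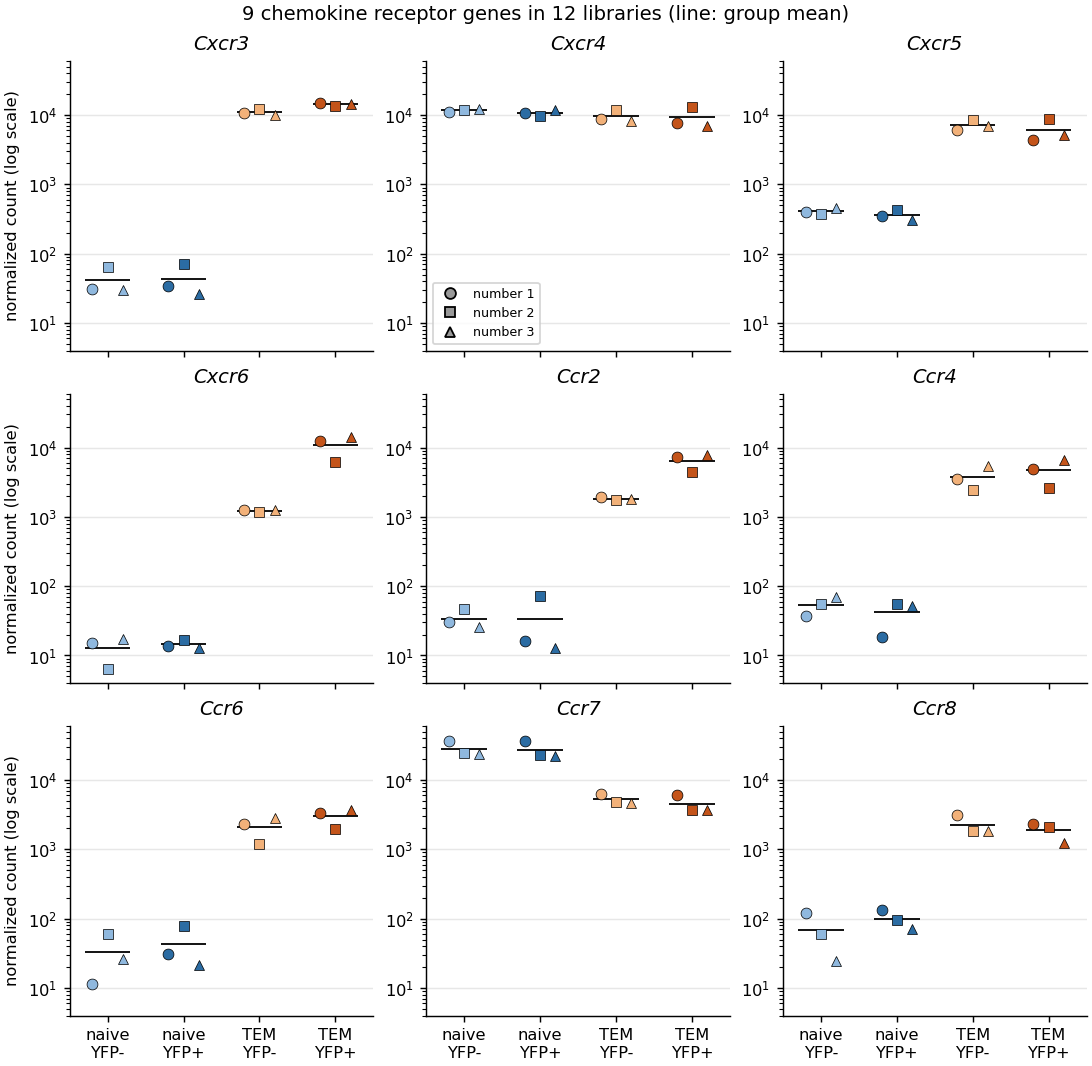
Normalized counts (log axis) of the 9 receptor genes in each of 12 libraries, with symbols for library numbers 1 to 3, a colour for each group and a line at the group mean. Cxcr6 and Ccr2 step up again from YFP- to YFP+ TEM cells, while the naïve fractions of every gene overlap.

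The question put to the TEM fractions was whether cells with a history of GM-CSF expression differ from cells without one. In this comparison 2 of the 9 receptor genes passed the test, Cxcr6 and Ccr2, both higher in YFP+ cells, and none was lower. Over all 15587 genes tested, 2.3% were called higher and 4.67% lower. The test was limma on the log2 of the normalized count plus 1, with Benjamini-Hochberg adjustment over all of these genes, and a gene passed at an adjusted p of 0.05 or less. The median log2 fold change of the 9 genes was 0.29, beside -0.01 over all genes.

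Cxcr6 (Entrez 80901) lies on chromosome 9 from 123806477 to 123811754 on mm10. It had 1258, 1159 and 1255 normalized counts in YFP- TEM libraries 1, 2 and 3, and 12574, 6095 and 14100.2 in the YFP+ libraries. The YFP- libraries lay close together, and every YFP+ library was above all of them, with number 2 the lowest in both fractions. The means were 1224 ± 56.4 and 10923 ± 4250.1 (SD, n = 3), a log2 fold change of 3.07 (SE 0.35, limma, adjusted p = 0.000311), which is 8.38-fold. Within library numbers the ratio of YFP+ to YFP- was 9.99, 5.26 and 11.2. It was the 67th largest increase among the 359 genes called higher. Across 27 other settings, 12 of them leaving out 1 library each, the log2 fold change stayed between 2.84 and 3.44 and the gene passed in each.

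Csf2 was also lowest in number 2 among the YFP+ TEM libraries. The gene Fyco1, an adaptor of autophagosome transport on the opposite strand, spans Cxcr6, but the exons of Cxcr6 share 0 bases with its exons. Fyco1 had 2792 ± 343 normalized counts in YFP- and 2713 ± 202 in YFP+ TEM cells (SD, n = 3), a log2 fold change of -0.04 (SE 0.15 and adjusted p = 0.962).

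Ccr2 (Entrez 12772, chromosome 9, 124101918 to 124109140) encodes the receptor for CCL2, best known for drawing monocytes and also carried by memory T cells. It had 1955, 1747 and 1804 normalized counts in YFP- TEM libraries 1, 2 and 3, and 7276, 4476 and 7709.8 in the YFP+ libraries. Here too the fractions did not overlap and number 2 was the lowest in both. The log2 fold change was 1.78 (SE 0.49, limma, adjusted p = 0.0477), or 3.44-fold, with ratios of 3.72, 2.56 and 4.27 within library numbers. The adjusted p lay close to the threshold. It was above 0.05 in 9 of the 12 fits that left out 1 library each, namely without any YFP- naïve library (0.0518 to 0.0634), any YFP- TEM library (0.116 to 0.147) or any YFP+ TEM library (0.0502 to 0.167). It was 0.00596 with edgeR and 0.0142 with DESeq2 on the recovered reads.

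Cxcr3, Ccr4 and Ccr6 had higher means in YFP+ TEM cells without passing. Cxcr3 (Entrez 12766, chromosome X, 101731535 to 101734147), the receptor for the interferon-induced ligands CXCL9, CXCL10 and CXCL11, had 10845, 12330.4 and 10016 normalized counts in YFP- TEM libraries and 15086, 13717 and 14376 in YFP+ libraries. The fractions did not overlap, which makes 3 of the 9 genes with Cxcr6 and Ccr2, against 10.6% of all genes not overlapping and higher and 14.3% not overlapping and lower. Its log2 fold change was 0.38 (SE 0.33, limma, adjusted p = 0.678), and it passed in a fit of the 6 TEM libraries alone (adjusted p = 0.0434).

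Ccr4 (Entrez 12773, chromosome 9, 114490316 to 114505476) binds CCL17 and CCL22. Its normalized counts were 3469, 2462 and 5346 in YFP- and 4948, 2601 and 6509 in YFP+ TEM libraries. These ranges overlap, although the YFP+ library was higher within each of the 3 numbers (ratios 1.43, 1.06 and 1.22), and the log2 fold change was 0.29 (SE 0.45, adjusted p = 0.857). Ccr6 (Entrez 12458, chromosome 17, 8236041 to 8258519) encodes the receptor for CCL20. It overlaps Gm33799, which was not analysed here. Its normalized counts were 2287, 1211 and 2863 against 3388, 1947 and 3707, also overlapping and also higher within each number (ratios 1.48, 1.61 and 1.29), with a log2 fold change of 0.54 (SE 0.57 and adjusted p = 0.762).

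The other 4 genes had slightly lower means in YFP+ TEM cells, and none passed. Ccr7 (Entrez 12775, chromosome 11, 99144199 to 99155077), the lymph node homing receptor for CCL19 and CCL21, had 6266, 4814 and 4631 normalized counts in YFP- and 6064, 3673 and 3686 in YFP+ TEM libraries. The YFP+ library was lower within each number (ratios 0.968, 0.763 and 0.796), while the fractions overlapped. The log2 fold change was -0.26 (SE 0.25) at an adjusted p of 0.734, and the gene passed once the library number entered as a replicate block, with an adjusted p of 0.0358 in limma and 0.00582 in DESeq2, whereas edgeR with the block gave 0.0552. Ccr8 (Entrez 12776, chromosome 9, 120092133 to 120094906), the receptor for CCL1, had 3117, 1842 and 1851 normalized counts against 2315, 2098 and 1246 (log2 fold change -0.27, SE 0.47, adjusted p = 0.883).

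Cxcr5 (Entrez 12145, chromosome 9, 44511787 to 44526444) guides cells into B cell follicles along CXCL13. It had 6128, 8568 and 6966 normalized counts in YFP- and 4379, 8719 and 5141 in YFP+ TEM libraries, with number 2 the highest in both. The log2 fold change was -0.30 (SE 0.22, adjusted p = 0.606). Follicular helper markers (7 genes, none of which passed here) were summed to 46282 and 53649 normalized counts in the number 2 libraries, above 29398 to 37314 in the other YFP- and 25643 to 33612 in the other YFP+ libraries. Exons of Cxcr5 share 110 bases (3.30%) with exons of Bcl9l on the opposite strand, and the strand setting of the counting is not given in the sources used here. Bcl9l, a cofactor of beta-catenin, had a log2 fold change of 0.10 (SE 0.15 and adjusted p = 0.844).

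Cxcr4 (Entrez 12767, chromosome 1, 128588199 to 128592299) encodes the receptor for CXCL12, which retains cells in bone marrow and other niches. Its normalized counts were 8754, 11861 and 8087 in YFP- and 7732, 13234 and 6925 in YFP+ TEM libraries, again with number 2 the highest in both. The ranges overlapped widely and the log2 fold change was -0.08 (SE 0.21, adjusted p = 0.931), with a 95% interval from -0.53 to 0.37. Number 2 was thus the lowest library in both TEM fractions for 4 of the 9 genes (Cxcr6, Ccr2, Ccr4 and Ccr6) and the highest in both for 2 (Cxcr4 and Cxcr5).

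In naïve cells none of the 9 genes separated by YFP. By limma none passed, and at an unadjusted p of 0.05 or less there was also none of them, beside 518 of all genes, and edgeR and DESeq2 called none of the 9 either. Of all genes tested, 0.00642% were called higher and 0% lower. The 3 libraries of YFP- and of YFP+ naïve cells overlapped for each of the 9, whereas 3.16% of all genes did not overlap and were higher and 2.21% did not overlap and were lower. The adjusted p was 1 for every one of them.

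Cxcr6 had 15.0, 6.37 and 17.3 normalized counts in YFP- and 13.6, 16.7 and 13.0 in YFP+ naïve libraries, a log2 fold change of 0.25 (SE 0.35) with a 95% interval from -0.51 to 1.02. Ccr2 had 29.9, 46.7 and 25.3 against 16.1, 71.8 and 13.0 (log2 fold change -0.39, SE 0.49). Both values were near the low end of the measurement, since the lowest naïve library held 6 reads of Cxcr6 and 13 of Ccr2. The 2 largest naïve values of Ccr2 were those of number 2, and YFP+ naïve library 2 also stood apart in monocyte and macrophage markers, which summed to 5019.6 normalized counts there and to 532 to 1301 in the other naïve libraries. Whether these cells contributed to Ccr2 in that library was not tested.

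Cxcr3 had 31.1, 63.7 and 30.0 normalized counts in YFP- and 34.6, 70.8 and 26.0 in YFP+ naïve libraries, and Ccr6 had 11.5, 59.4 and 26.5 against 30.9, 77.7 and 21.4. In both genes number 2 was the highest of each fraction. Ccr4 had 36.9, 55.2 and 70.3 against 18.6, 56.1 and 52.1, and Ccr8 had 119, 60.5 and 24.2 against 135, 95.4 and 69.8. The widest naïve difference of the 9 genes was that of Ccr8, a log2 fold change of 0.77 (SE 0.47) with a 95% interval from -0.25 to 1.79. Cxcr5 had 394, 370.3 and 459 against 354, 420.1 and 305. Ccr7 had 36831, 24839 and 23610.5 against 36854, 23046 and 22212, so that number 1 was the highest in both fractions. Cxcr4 had 11093, 11728 and 12221 against 10671, 9779 and 11917, within each number lower in YFP+ cells, with a log2 fold change of -0.12 (SE 0.21).

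The difference between the YFP difference in TEM cells and that in naïve cells was tested as an interaction. Of the 9 genes 1 passed, Cxcr6, beside 0.828% of all genes called higher and 2.73% called lower. The interaction of Cxcr6 was 2.82 on the log2 scale (SE 0.50, limma, adjusted p = 0.00919). Leaving out each library in turn kept it between 2.57 and 3.22, with adjusted p from 0.0043 to 0.0318. For Ccr2 it was 2.17 (SE 0.69, adjusted p = 0.142), and without YFP+ naïve library 2 it was 2.91 and passed (adjusted p = 0.00347). The other 7 genes lay between -1.04 (Ccr8, SE 0.66, adjusted p = 0.701) and 0.74 (Ccr4, SE 0.63, adjusted p = 0.855).

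**Figure D2:**
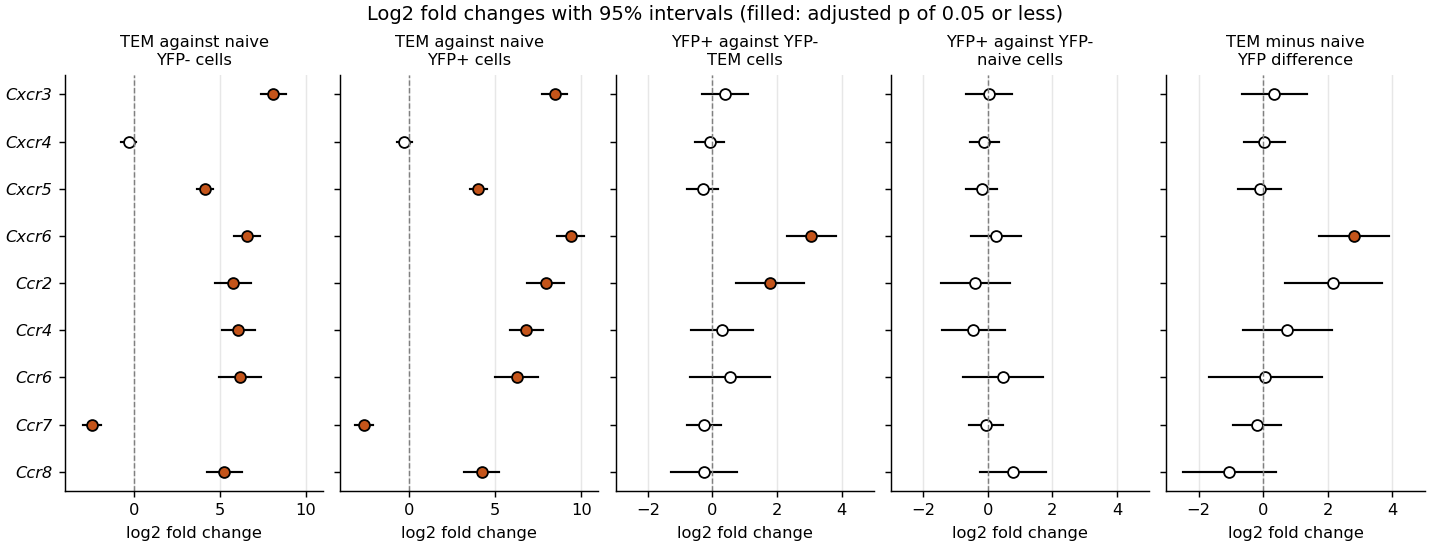
Log2 fold changes of the 9 genes (points) with 95% intervals (lines) in 4 comparisons and for the interaction, filled where the adjusted p was 0.05 or less. Intervals of Cxcr6 lie above 0 in the TEM comparison and in the interaction, and in naïve cells every interval spans 0.

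Memory was compared with the naïve state within each YFP fraction. In YFP- cells 7 of the 9 genes were higher in TEM cells, Ccr7 was lower, and Cxcr4 did not pass. Over all genes 29.9% were called higher and 19.9% lower. In YFP+ cells the same 7 genes were higher, Ccr7 was lower and Cxcr4 did not pass, beside 24.7% of all genes called higher and 16.7% lower. All 8 genes that passed were free of overlap between the groups in both fractions, as were 33.9% (higher) and 25.2% (lower) of all genes in YFP- cells and 27.4% and 21.3% in YFP+ cells. The median log2 fold change of the 9 genes was 5.76 in YFP- and 6.24 in YFP+ cells, beside 0.05 and 0.03 over all genes.

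Cxcr3 had the largest increase of the 9 in YFP- cells, by 8.10 on the log2 scale (SE 0.33, limma, adjusted p = 4.17e-09), the 22nd largest of 15587 genes. Cxcr6 had the largest in YFP+ cells, 9.38 (SE 0.35, adjusted p = 2.87e-09), which is 668-fold and the third largest of all genes. In YFP- cells the log2 fold change of Cxcr6 was 6.57 (SE 0.35, adjusted p = 2.77e-08), or 94.8-fold. Among the 9 genes Cxcr6 thus stood second in YFP- cells and at the top in YFP+ cells. The fractions do not share libraries in this comparison, but the TEM libraries are those of the YFP comparison above.

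The increase of Ccr2 was 5.76 on the log2 scale in YFP- cells (SE 0.49, adjusted p = 1.14e-06) and 7.93 in YFP+ cells (SE 0.49, adjusted p = 1.12e-07). Ccr4 rose by 6.07 and 6.81 (SE 0.45 each, adjusted p = 3.63e-07 and 1.79e-07), and Ccr6 rose by 6.18 and 6.24 (SE 0.57 each, adjusted p = 2.16e-06 and 2.98e-06). Ccr8 rose by 5.27 in YFP- and 4.23 in YFP+ cells (SE 0.47 each, adjusted p = 1.65e-06 and 1.52e-05), and Cxcr5, which started from 305 to 459 normalized counts in naïve cells, rose by 4.14 and 4.02 (SE 0.22 each, adjusted p = 2.61e-08 and 4.39e-08). The interaction given above covers these differences between fractions, and it was passed by Cxcr6 alone.

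Ccr7 fell by 2.42 on the log2 scale in YFP- cells (SE 0.25, limma, adjusted p = 4.71e-06), which is 5.37-fold, and by 2.61 in YFP+ cells (SE 0.25, adjusted p = 3.76e-06). The ratio of TEM to naïve cells was close within library numbers, at 0.170, 0.194 and 0.196 in YFP- and 0.165, 0.159 and 0.166 in YFP+ cells. Cxcr4 had log2 fold changes of -0.31 (SE 0.21, adjusted p = 0.243) and -0.27 (SE 0.21, adjusted p = 0.326). In number 2 the TEM library was level with or above the naïve one (ratios 1.01 and 1.35), and in numbers 1 and 3 it was below (ratios from 0.581 to 0.789). Without the 4 libraries numbered 2 Cxcr4 passed in both fractions, with log2 fold changes of -0.47 (adjusted p = 0.00721) and -0.62 (adjusted p = 0.0022), and in YFP+ cells it also passed without YFP+ TEM library 2 alone (-0.56, adjusted p = 0.0124).

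To compare levels between genes, normalized counts were divided by exon length in kilobases. The length covers all annotated exons of a gene joined, 1931 bases for Cxcr6 and 6760 for Ccr2, and the places depend on it. In both naïve fractions Ccr7 stood highest on this scale and Cxcr4 second, with 14372 ± 3693 and 6460.4 ± 313 per kb in YFP- cells (SD, n = 3), and the other 7 genes were at 122 per kb or less. In YFP- naïve cells neighbours from Ccr7 through Cxcr4 and Cxcr5 to Ccr8 did not overlap, while those from Ccr8 down to Ccr2 did. In YFP+ naïve cells Cxcr5 and Ccr8 overlapped and Ccr8 and Cxcr3 were apart. In YFP- TEM cells Cxcr3 led with 6391 ± 678 per kb, followed by Cxcr4 with 5292 ± 1114, whose libraries overlapped with it. Cxcr6 was in the eighth place with 634 ± 29.2 per kb and Ccr2 last with 271 ± 15.9, and these 2 did not overlap. Before the division by length Ccr2 was above Cxcr6 in these libraries, with 1747 to 1955 against 1159 to 1258 normalized counts.

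In YFP+ TEM cells Cxcr6 stood second. It had 5657 ± 2201 per kb, below Cxcr3 with 8315 ± 396 and overlapping with Cxcr4 at 5142 ± 1899. Cxcr4 and Ccr7 (2262 ± 696 per kb) were again apart, and all neighbours below Ccr7 overlapped. The summed level of the 9 genes was 21464 ± 1183 per kb in YFP- and 28580.0 ± 1501 in YFP+ TEM cells, close to 21079 ± 3420.0 in YFP- naïve cells. Of this sum Cxcr6 held 2.96 ± 0.28% in YFP- and 19.6 ± 7.10% in YFP+ TEM cells, whereas Cxcr3 held 29.7 ± 1.75% and 29.1 ± 0.23%. Ccr7 went from 67.5 ± 6.05% of the sum in YFP- naïve cells to 12.3 ± 1.94% in YFP- TEM cells. These levels are a description, and no test was made between genes.

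**Figure D3:**
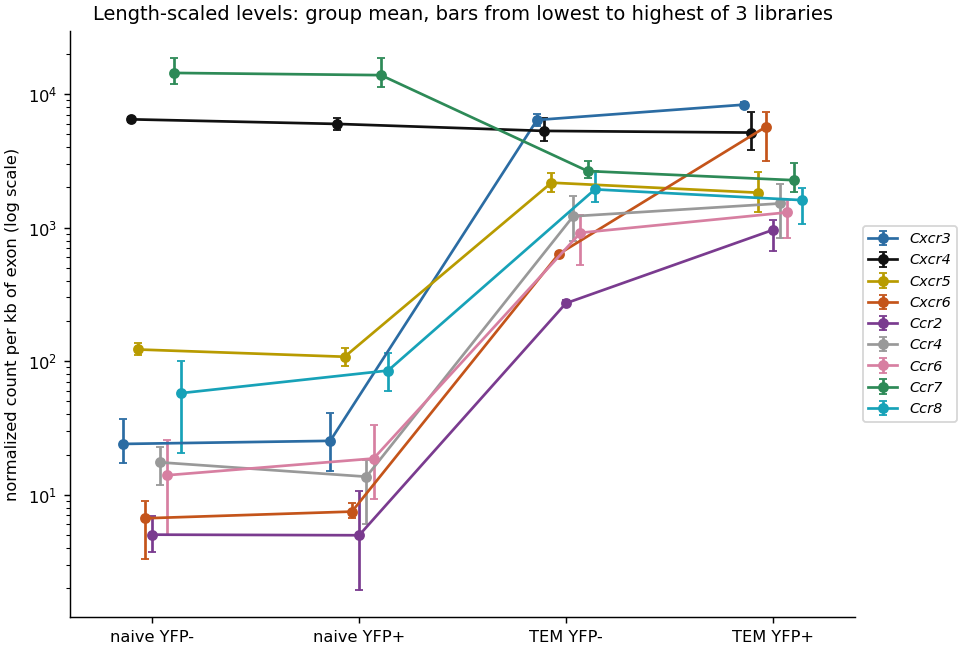
Normalized count per kilobase of exon (log axis) of the 9 genes in the 4 groups, as the mean with bars from the lowest to the highest of 3 libraries. Cxcr6 rises from 634 per kb in YFP- to 5657 per kb in YFP+ TEM cells and moves from the eighth to the second place, and Ccr7 falls from the first place.

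Of the 9 genes 5 lie on chromosome 9. Cxcr6 and Ccr2 belong to a cluster of receptor genes, with their midpoints 296 kb apart, and Ccr8, Ccr4 and Cxcr5 lie farther away on the same chromosome. Of 12 listed neighbours 11 were tested and none passed in the TEM comparison. Ccr9, the gut homing receptor for CCL25 and the nearest receptor gene to Cxcr6 on its other side, had 1209, 497 and 1218 normalized counts in YFP- and 2826, 1096 and 3405 in YFP+ TEM libraries. Its fractions overlapped through number 2 of YFP+ cells, although the YFP+ library was higher within each number (ratios 2.34, 2.21 and 2.79). The log2 fold change was 1.28 (SE 0.41, limma, adjusted p = 0.0956), and with the replicate block the gene passed (adjusted p = 0.0373). In naïve cells Ccr9 had 145, 168 and 142 normalized counts in YFP- and 76.7, 60.0 and 47.4 in YFP+ libraries (adjusted p = 1), and its interaction passed at 2.59 (SE 0.58, adjusted p = 0.0288). That call was lost in 8 of the 12 fits that left out 1 library (adjusted p up to 0.0794) and without the variance trend (0.0741).

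The ciliary trafficking gene Lztfl1 had a log2 fold change of 0.62 (SE 0.18 and adjusted p = 0.0572). The values of Limd1 (-0.02), Sacm1l (0.03), Ccr1 (0.08) and Xcr1 (-0.45) lay within their SEs of 0.12, 0.09, 1.14 and 0.94, and Ccr3 had 0.82 (SE 1.24). More distant on the chromosome, Ccrl2 had 0.04 (SE 0.51) and Ltf -0.52 (SE 1.43). Against naïve cells 7 of these 11 neighbours were higher in YFP- and 6 in YFP+ TEM cells, and none was lower. Over all genes 29.9% were called higher in YFP- and 24.7% in YFP+ TEM cells.

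**Figure D4:**
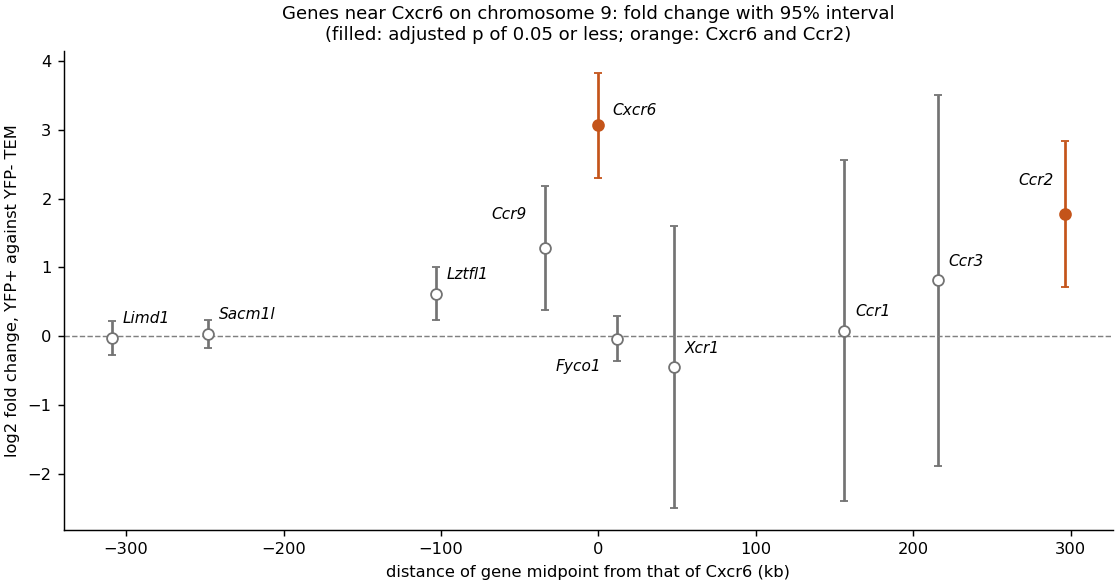
Log2 fold change between YFP+ and YFP- TEM cells with 95% interval for genes near Cxcr6, placed by the distance of their midpoints from that of Cxcr6 in kb, filled where the adjusted p was 0.05 or less. Cxcr6 and Ccr2 are filled, Fyco1, which spans Cxcr6, is at -0.04, and Ccr9 lies above 0 without passing.

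Of 15 further chemokine receptor genes 13 were tested, and 1 passed in the TEM comparison. Ackr1, an atypical receptor that binds chemokines without signalling, fell from 161, 68.9 and 213 normalized counts in YFP- to 14.2, 10.4 and 10.5 in YFP+ TEM libraries, a log2 fold change of -3.42 (SE 0.64, limma, adjusted p = 0.00504). With a prior count of 0.1 in place of 1 it did not pass (adjusted p = 0.186), and it passed in all 12 fits that left out 1 library. With the replicate block 3 of the 13 passed. None passed in naïve cells with limma, where 2 reached an unadjusted p of 0.05 or less, DESeq2 and edgeR called none, and DESeq2 with the block called 1.

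Against naïve cells 9 of the 13 were higher and 1 lower in YFP- TEM cells, beside 29.9% and 19.9% of all genes. In YFP+ TEM cells 7 were higher and 1 lower, beside 24.7% and 16.7% of all genes. Ccr10, a receptor of skin-homing T cells, was at 3 reads or fewer in every naïve library and was at least 60.5-fold higher in YFP- and at least 119-fold higher in YFP+ TEM cells than a floor of 3 reads per library. Ackr1 was at least 43.8-fold higher in YFP- TEM cells on the same basis. Ccr9 rose by 2.57 and 5.16 (SE 0.41 each, adjusted p = 0.000223 and 9.65e-07). The fractalkine receptor gene Cx3cr1 rose by 6.23 in YFP- cells (SE 0.89, adjusted p = 8.73e-05). Cxcr1, a receptor for CXCL8-like chemokines, was lower in both fractions, with 101 to 249 normalized counts in the naïve libraries and 0 to 7.08 in the TEM libraries. Markers of conventional dendritic cells (7 of 7), plasmacytoid dendritic cells (7 of 8) and monocytes and macrophages (6 of 9) were also higher in YFP- TEM than naïve cells. In YFP+ cells 4 of 7, 4 of 8 and 2 of 9 were higher. Their part in the increases of receptor and ligand genes over naïve cells was not tested.

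The ligands of these receptors could in part be followed in the same bulk libraries, with 7 of 16 listed ligand genes tested. Which cells in a library held the ligand RNA was not tested. In the TEM comparison 2 passed, both lower in YFP+ cells. Cxcl16, the ligand of CXCR6, had 334, 217 and 346 normalized counts in YFP- and 46.5, 29.0 and 50.4 in YFP+ TEM libraries, a log2 fold change of -2.81 (SE 0.53, limma, adjusted p = 0.00521), opposite in sign to Cxcr6. Ccl22, a ligand of CCR4 that dendritic cells make in quantity, had 133, 67.4 and 111 against 17.2, 6.21 and 18.1 (log2 fold change -2.89, SE 0.51, adjusted p = 0.00345). Both interactions passed, at -4.78 for Cxcl16 (SE 0.74, adjusted p = 0.00474) and -3.57 for Ccl22 (SE 0.72, adjusted p = 0.0162). The interaction of Ccl22 did not pass without YFP- TEM library 1 (adjusted p = 0.0561) or 3 (0.0566) or under quantile normalization (0.107).

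Against naïve cells 6 of the 7 ligand genes were higher in YFP- and 4 in YFP+ TEM cells, beside 29.9% and 24.7% of all genes. The CXCR3 ligand Cxcl10 rose by 5.66 and 5.65 (SE 0.54 each, adjusted p = 2.94e-06 and 4.41e-06). The CCR8 ligand Ccl1 was at 0 in every naïve library, which makes it at least 28.8-fold higher in YFP- and at least 30.3-fold higher in YFP+ TEM cells than a floor of 3 reads per library. Cxcl16 was higher in YFP- TEM cells by 5.50 (SE 0.53, adjusted p = 2.92e-06), whereas the YFP+ fractions differed by 0.72 (SE 0.53, adjusted p = 0.303). Cxcl9 and Cxcl11, which also bind CXCR3, passed in both fractions, with at most 63.0 and 14.8 normalized counts in any TEM library. In YFP+ cells Cxcl9 overlapped between the groups, with 20.7 normalized counts in naïve library 2 and 14.3 to 26.3 in the TEM libraries. Cxcl11 had only 2 to 5 reads in the YFP+ TEM libraries and 0 in every naïve library.

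The listed genes that act downstream of the receptors, 26 of them, were tested in full. They comprise G protein subunits, receptor kinases, arrestins, regulators of G protein signalling and motility genes. In the TEM comparison 1 passed. Rgs2, a GTPase-activating protein that shortens G protein signals, had 3177, 2982 and 5557 normalized counts in YFP- and 1889.6, 1843 and 1664 in YFP+ TEM libraries, a log2 fold change of -1.06 (SE 0.24, limma, adjusted p = 0.0169). It lost the call without YFP- TEM library 3 or YFP+ TEM library 3, and with the replicate block 4 of the 26 passed. None passed in naïve cells by limma, edgeR or DESeq2, and by limma none reached an unadjusted p of 0.05.

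Against naïve cells 9 of the 26 signalling genes were higher and 6 lower in YFP- TEM cells, beside 29.9% and 19.9% of all genes. In YFP+ TEM cells 10 were higher and 7 lower, beside 24.7% and 16.7% of all genes. Rgs16, another of these regulators, had the largest increases, 5.04 and 4.87 on the log2 scale (SE 0.46 each, adjusted p = 1.88e-06 and 3.62e-06). Rgs1 rose by 2.54 and 2.68 (SE 0.27 each, adjusted p = 6.97e-06 and 6.61e-06), and the G protein gamma subunit gene Gng2 rose by 2.19 and 2.44 (SE 0.16 each, adjusted p = 3.21e-07 and 1.7e-07). Rasgrp2, which activates Rap1 on the way from chemokine receptors to integrins, fell by 1.72 and 1.57 (SE 0.08 each, adjusted p = 1.1e-08 and 3.19e-08). The Gi alpha subunit gene Gnai2 did not pass in any comparison and had group means between 44258 and 46967 normalized counts.

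Genes of other cell types moved together with some of these results in the TEM comparison. Invariant NKT markers (Zbtb16, Trav11, Trav11d and Klrb1c) summed to 439 to 679 normalized counts in YFP- and 3730.1 to 8798 in YFP+ TEM libraries, and 4 of 4 passed, higher in YFP+ cells. Their sum was lowest in number 2 of both fractions, as was Cxcr6. Trav11 and Trav11d ran close together, with 2303, 937 and 2185 against 2437, 1039 and 2329 normalized counts in the YFP+ TEM libraries. Whether both genes count separate transcripts was not tested. Gamma delta T cell markers summed to 382 to 500.2 and 1561 to 3007, and 2 of 3 tested passed, Trgc1 and Trgc2, both higher in YFP+ cells. The third, the delta constant gene Trdc, overlapped between the fractions. It had 214, 248 and 358 normalized counts in YFP- and 216, 258 and 189 in YFP+ TEM libraries. Sox13 was at 3 reads or fewer in every YFP- and Trdv4 in every YFP+ TEM library. NK cell markers, which share Klrb1c with the invariant NKT list, summed to 2121 to 3198 and 5244 to 8827, and 3 of 6 passed, all higher. Eomes, also on this list, had a lower mean in YFP+ cells, with 494, 634 and 453 against 375, 460 and 336 normalized counts. Ncr1 was at 3 reads or fewer in every YFP- TEM library. The part of such cells in the results on Cxcr6 and Ccr2 was not tested.

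Dendritic cell markers went the other way. Conventional dendritic cell markers summed to 11933 to 26422 normalized counts in YFP- and 792 to 2130.2 in YFP+ TEM libraries, with 7 of 7 lower in YFP+ cells, the same direction as Cxcl16, Ccl22 and Ackr1. Monocyte and macrophage markers summed to 9120.2 to 16410 and 3023 to 5887, with 4 of 9 lower. The members of this list were not of 1 direction, since C1qa (log2 fold change 1.41), C1qb (1.43) and Fcgr1 (1.68) had higher values in every YFP+ than in any YFP- TEM library, as Ccr2 did, without passing (adjusted p = 0.682, 0.72 and 0.464). Plasmacytoid dendritic cell markers had 7 of 8 lower and CD8 T cell markers 2 of 2. Their part in the ligand results was not tested.

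Among T cell lists, regulatory T cell markers summed to 52141 to 71708 normalized counts in YFP- and 43448 to 48887 in YFP+ TEM libraries, with 1 of 6 (Foxp3) lower. Th17 markers summed to 313 to 597 and 813 to 1714, with 1 of 4 tested (Il23r) higher. Of 7 memory markers 1 was higher, of 7 naïve markers 1 was higher and 1 lower, of 9 B cell markers 2 were higher, and of 7 CD4 T cell markers and 3 tested neutrophil markers none passed by limma, although 2 of the neutrophil markers, S100a8 and S100a9, had an unadjusted p of 0.05 or less, with at most 4.45 normalized counts in YFP- and 7.25 to 89.4 in YFP+ TEM libraries. No test was made of what these lists contribute to the receptor genes.

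**Figure D5:**
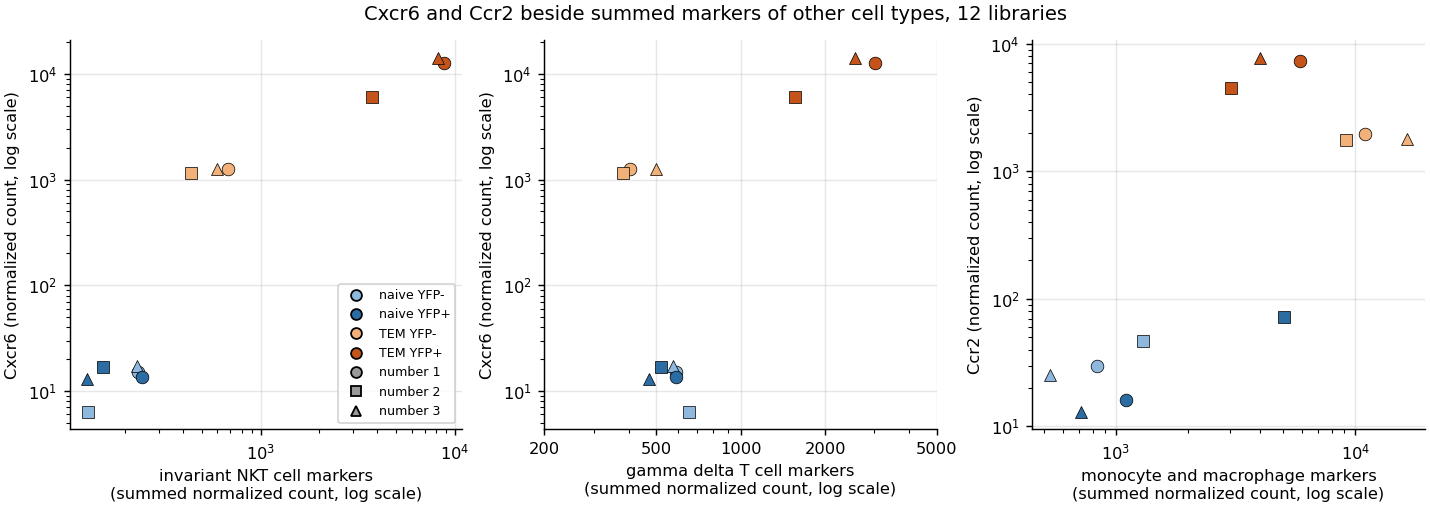
Cxcr6 (left and middle) and Ccr2 (right) in normalized counts beside the summed normalized counts of 3 marker lists in each of 12 libraries, both axes logarithmic. YFP+ TEM libraries are highest in the sums of invariant NKT and gamma delta markers and in Cxcr6. Trdc, on the gamma delta list, overlapped between the TEM fractions. The monocyte and macrophage sum of YFP+ TEM libraries, of which 3 of 9 markers were higher without overlap, lies below that of YFP- TEM libraries. Ccr2 of YFP+ TEM libraries lies above.

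For each receptor gene the 3 genes most like it over the 12 libraries were found by the Pearson correlation of log2 values, leaving out genes whose mean normalized count was under 50. The 12 points share their 4 groups and library numbers, so the coefficients describe likeness only. Those of Cxcr6 were Hic1 (0.993), Id2 (0.993) and Kcnq5 (0.993), which also have higher means in YFP+ than in YFP- TEM cells. Id2, an inhibitor of E proteins, went from 12304 to 24368 and Hic1, a transcriptional repressor, from 791 to 1833 normalized counts. Those of Ccr2 were the cytotoxic granule gene Nkg7 (0.996), which is on the NK cell list, St6galnac3 (0.993) and Mmp25 (0.993).

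The most like of Cxcr3 was Slc39a4 (0.997), followed by Myo1f (0.995) and Bcl2a1d (0.995), and that of Cxcr5 was Tiam1 (0.998), followed by Rsph3a (0.997) and S100a11 (0.997). For Ccr4 they were Sulf2 (0.996), the cytokine signal inhibitor Cish (0.994) and Adgrg5 (0.993). For Ccr6 they were Il9r (0.996), Ankrd6 (0.996) and Gpr55 (0.995), and for Ccr8 Icos (0.990), a costimulatory receptor, Marchf3 (0.988) and Nr3c2 (0.988). Ccr7 was most like St8sia1 (0.995), Pecam1 (0.993) and Ttyh3 (0.992), all lower in TEM cells. The coefficients of Cxcr4 were lower, with Trav7-5 (0.898), Cd247 (0.891) and Sertad1 (0.888).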

How the data were processed

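RNA was measured in 12 libraries of sorted splenic CD4+ T cells, 4 groups of 3. The authors made total RNA libraries with a stranded kit, aligned reads to mm10 with DRAGEN, counted them per gene with Rsubread and divided the counts by DESeq2 size factors. The deposited signal is this normalized count, and 100% of the values came out as whole reads (tolerance 0.001) once the scale of each library was recovered, with 40974124 to 57822269 reads on genes per library (median 44929387). Annotation, strand setting and tool versions are not given in the sources used here. Results of the study's own comparisons were not used, and 0 columns of the normalized counts were left out. Entrez identifiers gave symbols for 16749 of 17523 genes, and 774 had none. Positions and start regions come from RefSeq on GRCm38.p6, and exon lengths from GENCODE M21.

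The 15587 genes that reached 5 normalized counts in 3 or more libraries were fitted by limma 3.58.1 in R 4.3.3 on log2(normalized count + 1), so fold changes of low genes are understated, with 4 group means, a variance trend, 8 residual degrees of freedom and Benjamini-Hochberg adjustment over all genes tested. The study used DESeq2. Because the deposited values are normalized, limma was the main test and edgeR 4.0.16 and DESeq2 1.42.0 on the recovered reads were alternatives. A gene passed at an adjusted p of 0.05 or less. Bounds against a group at 3 reads or fewer use 3 reads in each library and cover counting error only. The 9 genes and all gene lists were chosen with earlier results of these data known. Besides the 9 genes, the text draws on the listed genes that passed between the TEM fractions, the 4 largest changes of a list in each memory comparison, the chromosome 9 neighbours, the genes overlapping a receptor gene and 3 like genes for each of the 9. Gnai2, C1qa, C1qb, Fcgr1, S100a8, S100a9, Trdc, Eomes and the markers at 3 reads or fewer were named after their values were seen.

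Same-numbered libraries deviated together, over all genes, in the first 3 of the following comparisons. Correlations were 0.306, 0.491 and 0.36 between the naïve fractions and 0.18, 0.338 and 0.356 between the TEM fractions. They were 0.168, 0.137 and 0.232 between naïve and TEM YFP- cells, and 0.204, -0.0199 and 0.0561 for YFP+ cells. The main fit did not pair libraries by number, so its p values take no account of this likeness. Only the alternatives with a replicate block did so. Alternatives were other prior counts, filters and scalings, a fit without the trend, a fit of the compared libraries alone, a replicate block and leaving out each library. The edgeR fit with the block and the fits without libraries numbered 2 were chosen after seeing the data. The values of some listed genes are not reported here, although the counts of their lists include them. The code was tested on simulated data.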

Additional observations from a re-analysis of the deposited data

Results flagged for a closer look

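For 5 genes the YFP difference in TEM cells differed from that in naïve cells by the interaction term in limma (adjusted p of 0.05 or less), out of the receptor genes, further receptors, ligands, signalling genes and Csf2. For Cxcr6 the interaction was 2.82 on the log2 scale (SE 0.50, adjusted p = 0.00919), with YFP+ above YFP- in each of the 3 TEM library numbers and overlapping naïve fractions. For Csf2, the gene whose promoter drives the Cre, it was 4.40 (SE 0.96, adjusted p = 0.0255), with every naïve library at 4 reads or fewer. It did not pass without YFP+ naïve library 1 or 3, any YFP- TEM library or YFP+ TEM library 1 or 3 (adjusted p up to 0.074), with a prior count of 0.1 (0.622) or in edgeR (0.148). For Ccr9 it was 2.59 (SE 0.58, adjusted p = 0.0288). It did not pass without any YFP- naïve library, YFP+ naïve library 2 or 3, YFP- TEM library 2 or YFP+ TEM library 1 or 3 (adjusted p up to 0.0794), without the variance trend (0.0741) or without both naïve libraries numbered 2 (0.102).

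Both ligand genes had negative interactions, -4.78 for Cxcl16 (SE 0.74, adjusted p = 0.00474) and -3.57 for Ccl22 (SE 0.72, adjusted p = 0.0162). In naïve cells Cxcl16 had 3.46, 12.7 and 3.46 normalized counts in YFP- and 22.3, 46.2 and 14.0 in YFP+ libraries. Ccl22 had 3.46, 2.12 and 2.30 against 7.42, 2.95 and 4.65, and its interaction did not pass without YFP- TEM library 1 or 3 (adjusted p = 0.0561 and 0.0566) or under quantile normalization (0.107). Summed markers of conventional dendritic cells were lower in YFP+ than in YFP- TEM libraries, as were both genes, at 792 to 2130.2 against 11933 to 26422 normalized counts. In naïve cells the sum was 96.7, 230.2 and 175 in YFP- and 220.1, 985 and 158 in YFP+ libraries, where YFP+ library 2 was the highest in the markers and in Cxcl16 and the lowest of its fraction in Ccl22. Their part in the ligand results was not tested. No formal test for single outlying libraries was made, since each group has 3.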

How the results depend on the processing

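Of the values of single receptor genes under other settings 1146 kept direction and call, 10 gained and 11 lost a call, and 39 uncalled values changed sign. In the comparison of TEM fractions 1 of the 9 receptor genes passed with a prior count of 0.1 or without the variance trend, and 1 to 2 with single libraries left out. Of the further receptors 0 passed with a prior count of 0.1, 2 under quantile normalization, 3 in a fit of the TEM libraries alone, with the replicate block, with DESeq2 or without both naïve libraries numbered 2, 4 with the block in DESeq2 or edgeR or without all libraries numbered 2, and 1 to 2 with single libraries left out (2 without YFP- naïve, YFP+ naïve or YFP+ TEM library 2). Of the signalling genes 2 passed under quantile normalization, 4 with the replicate block, 0 without the trend, 3 with DESeq2, 8 with the block in DESeq2 or edgeR, and 0 to 1 with single libraries left out. In naïve cells DESeq2 with the replicate block called 1 further receptor. Requiring a log2 fold change of 1 or more left 8 signalling genes in YFP- and 7 in YFP+ TEM against naïve cells. In the interaction 2 receptor genes passed under quantile normalization, without all libraries numbered 2 or without both naïve ones, and 1 to 2 with single libraries left out (2 without YFP+ naïve library 2, the second gene being Ccr2). Of the further receptors 2 passed there with a prior count of 5, 0 without the trend or without both naïve libraries numbered 2, and 0 to 1 with single libraries left out (0 without any of YFP- naïve 1 and 3, YFP+ naïve 2 and 3, YFP- TEM 2 and YFP+ TEM 1 and 3), and 1 signalling gene passed with DESeq2 and the block. The cause was not tested.

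Uncalled signs turned as follows. In naïve cells Cxcr3 was -0.093 under quantile normalization and -0.022 without all libraries numbered 2 or both naïve ones, Cxcr6 was -0.26 in the latter 2 fits, and Ccr2 was 0.000695 in edgeR with the replicate block. In the interaction Cxcr4 was -0.16 without all libraries numbered 2 and -0.036 without both naïve ones, Cxcr5 was 0.071 without both naïve ones, and Ccr6 was -0.057 without all of them. With single libraries left out, TEM values spanned -0.44 to 0.0037 for Ccr8 and -0.37 to 0.10 for Cxcr4. Naïve values spanned -1.13 to 0.058 for Ccr2, -0.73 to 0.046 for Ccr4, -0.089 to 1.05 for Ccr6, -0.30 to 0.14 for Ccr7, -0.37 to 0.38 for Cxcr3 and -0.15 to 0.50 for Cxcr6. Interactions spanned -0.51 to 0.63 for Ccr6, -0.43 to 0.044 for Ccr7, -0.25 to 0.22 for Cxcr4 and -0.41 to 0.092 for Cxcr5. The replicate block changed no call of the 9 genes other than that of Ccr7 between the TEM fractions. With 6 to 17 reads of Cxcr6 in naïve libraries, depth limits the naïve comparison of this gene.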
